A study of Mus musculus with 7 samples.

Results

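Ret and its GDNF family ligands and co-receptors were followed across mouse salivary gland libraries. The set holds 7 genes, taken by symbol from the deposited tables: the receptor Ret, the ligands Gdnf, Nrtn and Artn, and the co-receptors Gfra1, Gfra2 and Gfra3. They are 7 of the 23366 genes in the count table. All 7 were listed there, and 5 of them (Ret, Nrtn, Gfra1, Gfra2 and Gfra3) passed the expression filter that kept 15129 genes for testing. Gdnf and Artn stayed below it and are described by their counts. The study set 2 kinds of salivary gland of the mouse against each other, the parotid and the submandibular gland. Its groups were parotid at postnatal day 18 (P18, 2 libraries), submandibular gland at P18 (2 libraries) and parotid at 12 weeks of age, here called adult (3 libraries). The labels give no genotype, strain, sex or treatment for any group, and all libraries came from polyadenylated RNA prepared with the same kit. A label names whole tissue whereas the extraction text names epithelial cells, so which cells entered the RNA is not settled by the labels. Nothing says that replicates came from separate animals. What the p-values measure is thus the spread among these samples and no more, and that spread may be technical.

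Ret is a receptor tyrosine kinase that binds no GDNF family ligand by itself. Each ligand first binds a co-receptor of the Gfra family, a protein held to the membrane by a lipid anchor, and the complex then brings Ret molecules together: Gdnf prefers Gfra1, Nrtn (neurturin) prefers Gfra2 and Artn (artemin) prefers Gfra3. The pathway is known for branching of the mouse ureteric bud and for enteric, sympathetic and parasympathetic neurons. In mice, Nrtn, Gfra2 and Ret are needed for the parasympathetic nerve supply of salivary glands.

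Total counts lay between 12844534 and 28856127 per library. Levels of a gene between libraries are given as normalised CPM, that is counts scaled to a library size corrected by edgeR's TMM factors. Levels of different genes are compared only as TPM, which divides by gene length. The labelled glands carried their defining transcripts. Bpifa2, a secreted parotid protein, had 40998 ± 33148 normalised CPM in P18 parotid and 420085 ± 70074 in adult parotid against 172 ± 129 in submandibular gland (SD, n = 2, 3 and 2). Smgc, a product of the immature submandibular gland, had 197670 ± 29816 normalised CPM there and 4.73 ± 1.10 in P18 parotid. The libraries of P18 parotid stood apart from each other. A list of 17 epithelial genes summed to 1166 normalised CPM in replicate 1 and 429 in replicate 2, and a list of 12 mesenchymal genes to 5998 and 9258. Fat cell genes summed to 3190 and 11284 and skeletal muscle genes to 1379 and 6727 in the same libraries. Adult replicate 1 held the highest sum of 12 B and T cell genes, 949 against 536 and 423 in the other adult libraries.

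Ret was the member that set the glands apart. It had 133 and 115 normalised CPM in the P18 submandibular libraries, from 2250 and 1573 counts. In P18 parotid it had 4.27 and 4.03 normalised CPM, from 94 and 90 counts. The adult parotid libraries gave 5.19, 5.22 and 5.41 normalised CPM from 53, 82 and 112 counts. Both submandibular libraries lay far above all 5 parotid libraries, and the groups did not overlap. Ret was 29.9-fold higher in submandibular gland than in parotid at P18, a log2 difference of 4.90 ± 0.20 (SE), with an adjusted p of 0.000299 by edgeR's quasi-likelihood test with Benjamini-Hochberg adjustment over all genes tested. It had the smallest p of the 15129 genes and was rank 70 by size among the 1537 genes called higher in submandibular gland. Against adult parotid, where age and gland differ together, Ret in P18 submandibular gland was 23.5-fold higher (log2 4.56 ± 0.16, edgeR adjusted p = 0.000138), again the smallest p of all genes.

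**Figure D1:**
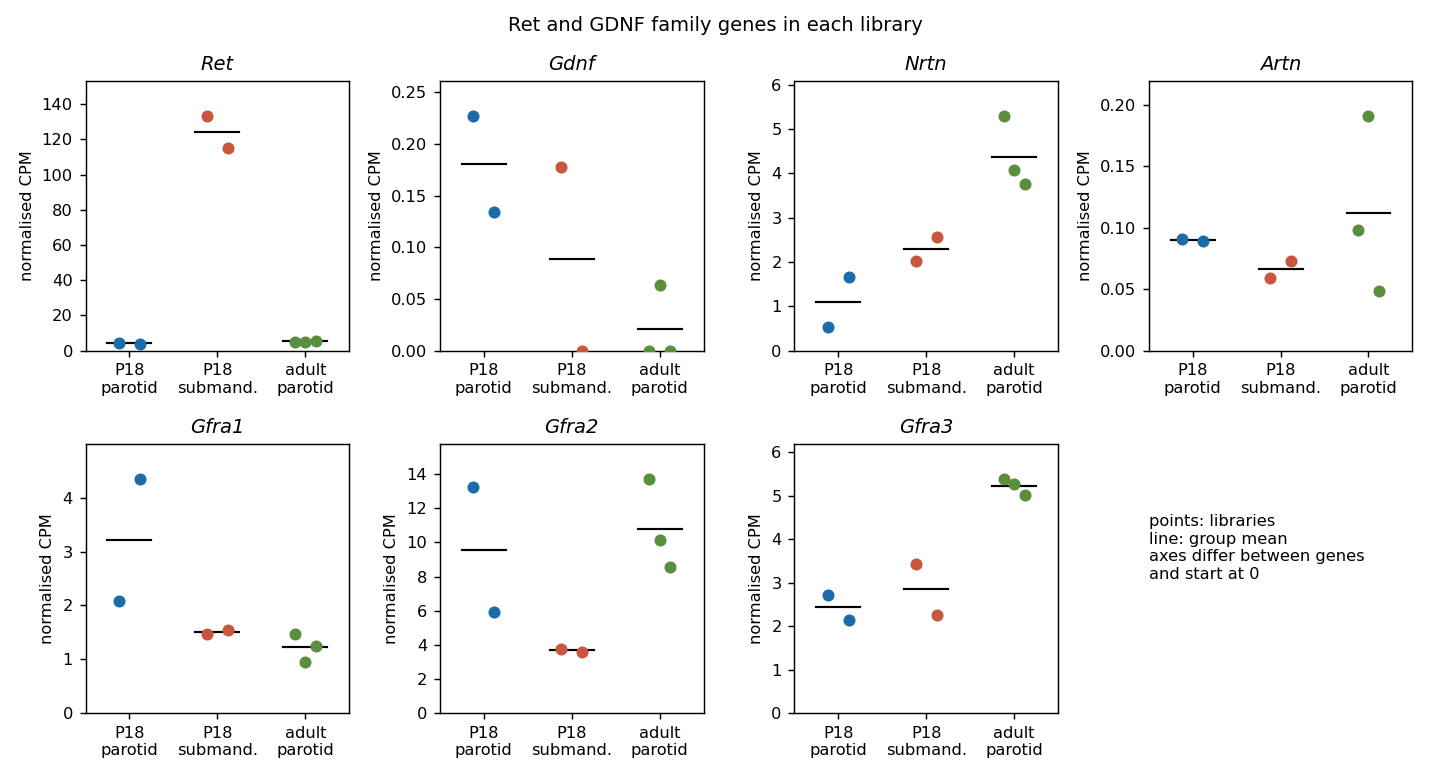
Normalised CPM (y axis, from 0, a separate scale for each gene) of the 7 members in P18 parotid, P18 submandibular gland and adult parotid. Points are libraries and lines are group means. Ret stands at 133 and 115 in the submandibular libraries and between 4.03 and 5.41 in all parotid libraries.

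Of the 5 members tested, Ret alone passed the adjusted p threshold of 0.05 between the glands at P18, where 24.4% of all genes tested passed, 10.2% higher and 14.2% lower. The groups did not overlap for Ret, Nrtn, Gfra1 and Gfra2, against 64.9% of all genes tested, 31.7% higher and 33.2% lower in submandibular gland. Without P18 parotid replicate 2 and adult replicate 1, the libraries that stood apart, Ret kept a 29.4-fold difference. That fit leaves a single library of P18 parotid. Nrtn and Gfra3 were then 4.19-fold and 1.07-fold higher in submandibular gland, and Gfra1 and Gfra2 1.37-fold and 3.53-fold lower. The median log2 difference of all genes was -0.02 there. The Ret difference passed in all 18 alternative settings with a test, at log2 values from 3.37 to 5.01. The epithelial list itself was higher in submandibular gland at P18, with 11 of its 17 genes called higher and none lower. Its median log2 difference was 1.84, and 1.24 without the 2 libraries that stood apart. Scaled to that list instead of to all genes, Ret was still 7.34-fold higher (log2 2.88, a value without a test). In bulk RNA, fewer cells of a type and less RNA per cell cannot be told apart.

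The relation of Ret to its co-receptors does not depend on scaling between libraries, since it is a ratio within each library. Ret TPM divided by the summed TPM of Gfra1, Gfra2 and Gfra3 was 5.54 and 5.91 in the submandibular libraries. The ratio was 0.0997 and 0.133 in P18 parotid and 0.0993, 0.121 and 0.137 in adult parotid. Ret transcripts thus exceeded those of the co-receptors in submandibular gland, and the co-receptors exceeded Ret 7.30-fold to 10.1-fold in all 5 parotid libraries. The P18 and adult parotid ranges of this ratio overlapped. Ret TPM were 30.2 and 24.9 in submandibular gland, 1.87 and 1.64 in P18 parotid, and 0.516, 0.628 and 0.646 in adult parotid. By TPM, Ret stood above 90.2% and 88.1% of all genes in the submandibular libraries, and above 41.6% to 46.5% in the parotid libraries.

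**Figure D2:**
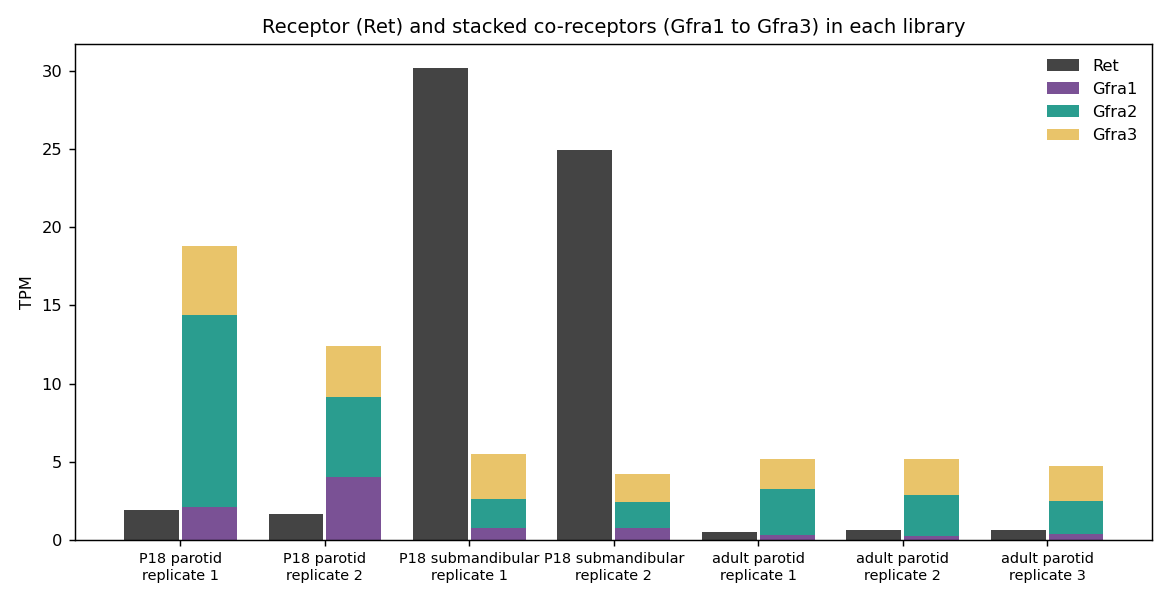
TPM (y axis) of Ret (dark bars) and of the co-receptors Gfra1, Gfra2 and Gfra3 (stacked bars) in each of the 7 libraries. Ret exceeds the stack in the 2 submandibular libraries, at 30.2 and 24.9 TPM against 5.46 and 4.22. In every parotid library the stack exceeds Ret.

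Ret is also known from autonomic neurons, so a list of 22 neuron genes was set beside it. The list summed to 31.8 and 21.8 normalised CPM in submandibular gland, against 7.53 and 8.56 in P18 parotid and 7.43 to 11.9 in adult parotid. In submandibular gland 2 and 4 of the 22 genes were at 0 counts, against 6 to 10 in the parotid libraries. Of the 12 genes tested, 6 were called higher in submandibular gland at P18 and none lower, with a median log2 difference of 2.42 against -0.07 over all genes tested. Setting Vip, Chrna3 and Elavl4, which had no count in P18 parotid, to their bounds left that median at 2.42. Without the 2 libraries that stood apart, the median log2 difference of the 14 genes then tested was 1.58. Vip, a neuropeptide of parasympathetic neurons, had 124 and 77 counts in submandibular gland and none in P18 parotid, and was at least 97.3-fold higher with 3 counts over the parotid group as the floor (edgeR adjusted p = 0.00325). Chrna3, a ganglionic acetylcholine receptor subunit, had 15 and 10 counts and none in any parotid library. Tubb3, a neuronal tubulin, was 10.7-fold higher (edgeR adjusted p = 0.00720), and Prph, a neuronal intermediate filament, 14.4-fold higher (edgeR adjusted p = 0.0135). The part of neurons in the Ret difference was not tested.

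Schwann cells are another place where Gfra co-receptors are known to be expressed. The 13 Schwann cell genes summed to 223 and 227 normalised CPM in submandibular gland, below the 351 and 284 of P18 parotid and the 278 to 382 of adult parotid. Of 11 tested, 1 was called higher and 5 lower in submandibular gland at P18. The 17 genes of the duct list, which shares Krt7 and Krt19 with the epithelial list, summed to 4072 and 3936 in submandibular gland, 612 and 230 in P18 parotid and 2122 to 3618 in adult parotid. At P18, 12 of the 17 were called higher in submandibular gland and none lower. Most of that sum was Klk1, a duct kallikrein with near-identical relatives. The other 16 genes, with Klk1 left out after its values were seen, summed to 734 and 795 in submandibular gland, 345 and 148 in P18 parotid and 437 to 555 in adult parotid. The part of duct cells in the Ret difference was not tested.

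Among the ligands, Nrtn carried nearly all of the signal. It made up 83.3% and 95.3% of the summed ligand TPM in P18 parotid, 96.2% and 98.7% in submandibular gland, and 97.4% to 99.4% in adult parotid. Nrtn counts were 12 and 37 in P18 parotid, 34 and 35 in submandibular gland and 54, 64 and 78 in adult parotid. These gave 0.545 and 1.66 normalised CPM in the P18 parotid libraries, 2.01 and 2.56 in submandibular gland, and 5.29, 4.07 and 3.76 in adult parotid. The order from P18 parotid through submandibular gland to adult parotid held without overlap between any groups. Nrtn was 2.06-fold higher in submandibular gland than in parotid at P18, short of the threshold and of opposite sign when scaled to the epithelial list (log2 1.05 ± 0.53, edgeR adjusted p = 0.190). Leaving out P18 parotid replicate 2, whose Nrtn was 3.04-fold that of replicate 1, made the difference 4.20-fold with an edgeR adjusted p of 0.0242.

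Because Nrtn and Gfra1 moved in opposite directions between P18 and adult parotid, their promoters are printed, from 250 bases before to 50 bases after the transcription start (RefSeq, build GRCm38.p6). The Nrtn window is chr17:56757499-56757798 and the Gfra1 window chr19:58455349-58455648, both on the minus strand and written 5′ to 3′ along the gene. Capitals mark the matches to a GC box (GGGCGG) or a CCAAT box (CCAAT), searched on both strands.
Nrtn: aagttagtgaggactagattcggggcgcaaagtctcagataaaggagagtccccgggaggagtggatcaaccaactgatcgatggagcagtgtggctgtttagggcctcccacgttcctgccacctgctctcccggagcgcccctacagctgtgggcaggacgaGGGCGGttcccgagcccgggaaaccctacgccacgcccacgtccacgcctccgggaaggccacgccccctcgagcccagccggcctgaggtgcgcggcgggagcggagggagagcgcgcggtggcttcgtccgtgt
Gfra1: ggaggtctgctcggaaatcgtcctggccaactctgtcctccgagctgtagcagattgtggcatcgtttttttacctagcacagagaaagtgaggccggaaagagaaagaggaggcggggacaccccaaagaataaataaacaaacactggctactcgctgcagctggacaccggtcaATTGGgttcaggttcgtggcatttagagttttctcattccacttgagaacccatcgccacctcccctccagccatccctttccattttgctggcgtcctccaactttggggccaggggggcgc
The Nrtn window held 66.7% G and C and 28 CpG pairs, with 1 GC box on the gene's strand. The Gfra1 window held 54.0% G and C and 12 CpG pairs, with 1 CCAAT box on the opposite strand, which reads ATTGG on the gene's strand. A TATA box (TATAAA) matched in neither. Of 32851 promoter windows of the same length, 35.7% held a GC box, 37.4% a CCAAT box and 13.6% a TATA box, and the medians were 52.7% G and C and 7 CpG pairs. A match is a description of letters, and the motifs do not overlap each other. In all, 4 of the 7 members had an entry in that table.

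Gdnf had 5 and 3 counts in P18 parotid, 3 and 0 in submandibular gland, and 0, 1 and 0 in adult parotid. The P18 parotid level was 1.84 times the submandibular level, with a 95% exact interval of 0.441 to 10.8 that includes no difference. It was 8.41 times the adult level, with an interval of 1.13 to 373. Artn had 2 and 2 counts in P18 parotid, 1 and 1 in submandibular gland, and 1, 3 and 1 in adult parotid. Its ratio of P18 parotid to submandibular gland was 1.38 (0.197 to 15.2), and that of P18 to adult parotid was 0.841 (0.167 to 3.91). At these counts no difference of Artn was detectable between groups. Such intervals reflect the error of counting alone, because reads of a library are no independent molecules.

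Gfra2, the preferred co-receptor of Nrtn, was the most abundant co-receptor in P18 parotid. Normalised CPM of Gfra2 were 13.2 and 5.91 there, 3.79 and 3.59 in the submandibular libraries and 13.7, 10.1 and 8.54 in adult parotid. Both submandibular libraries lay below all parotid libraries. The difference at P18 was 2.59-fold lower in submandibular gland and just missed the threshold (log2 -1.37 ± 0.42, edgeR adjusted p = 0.0523). It passed in 7 of 18 alternatives, DESeq2 among them (adjusted p = 0.0172). Without P18 parotid replicate 1 the difference was 1.56-fold (edgeR adjusted p = 0.180), and without replicate 2 it was 3.53-fold (edgeR adjusted p = 0.00856). Against adult parotid, Gfra2 in submandibular gland was 2.91-fold lower and passed (log2 -1.54 ± 0.40, edgeR adjusted p = 0.0206). That call held in 10 of 18 alternatives. It was lost without either submandibular library (adjusted p = 0.114 and 0.122) and, narrowly, without adult replicate 1 (0.0513) or 2 (0.0511), all by edgeR. Plain library sizes ended it at 1.86-fold (edgeR adjusted p = 0.0967), and the limma fits of TPM ended it at 1.29-fold to 1.43-fold (adjusted p from 0.261 to 0.431). With Ret, 2 of 5 members passed in that comparison, where 39.2% of all genes tested passed, 19.4% higher and 19.8% lower. All 5 members had groups without overlap there, as did 72.0% of all genes tested, 36.1% higher and 35.9% lower.

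B and T cell transcripts were also lowest in submandibular gland. The 12 B and T cell genes summed to 17.1 and 15.7 normalised CPM there, 392 and 82.8 in P18 parotid, and 949, 536 and 423 in adult parotid. Ptprc, which other leukocytes also carry, made up much of these sums. Its mean was 13.3 normalised CPM in submandibular gland, 115 in P18 parotid and 209 in adult parotid. All 12 genes of the list were called lower in submandibular gland at P18. Their median log2 difference was -5.34, and -6.06 without the 2 libraries that stood apart. Within P18 parotid, replicate 1 was above replicate 2 both for Gfra2, by 2.23-fold, and for the lymphocyte sum. Within adult parotid, replicate 1 had the highest and replicate 3 the lowest value of both. Sums of other cell type lists were lowest in submandibular gland too: 168 and 192 for macrophage genes against at least 292 in every parotid library, and 158 and 141 for endothelial genes against at least 302. Fat cell genes summed to 76.3 and 79.0 against at least 2870, and skeletal muscle genes to 8.88 and 58.2 against at least 649. Within P18 parotid these 4 sums were higher in replicate 2. The epithelial (1166 and 429), duct (612 and 230) and Schwann cell (351 and 284) sums were higher in replicate 1. Within adult parotid the macrophage, endothelial and fat cell sums were also highest in replicate 1 and lowest in replicate 3. The skeletal muscle sum had the reverse order. The part of lymphocytes or of these other cells in the Gfra2 values was not tested.

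**Figure D3:**
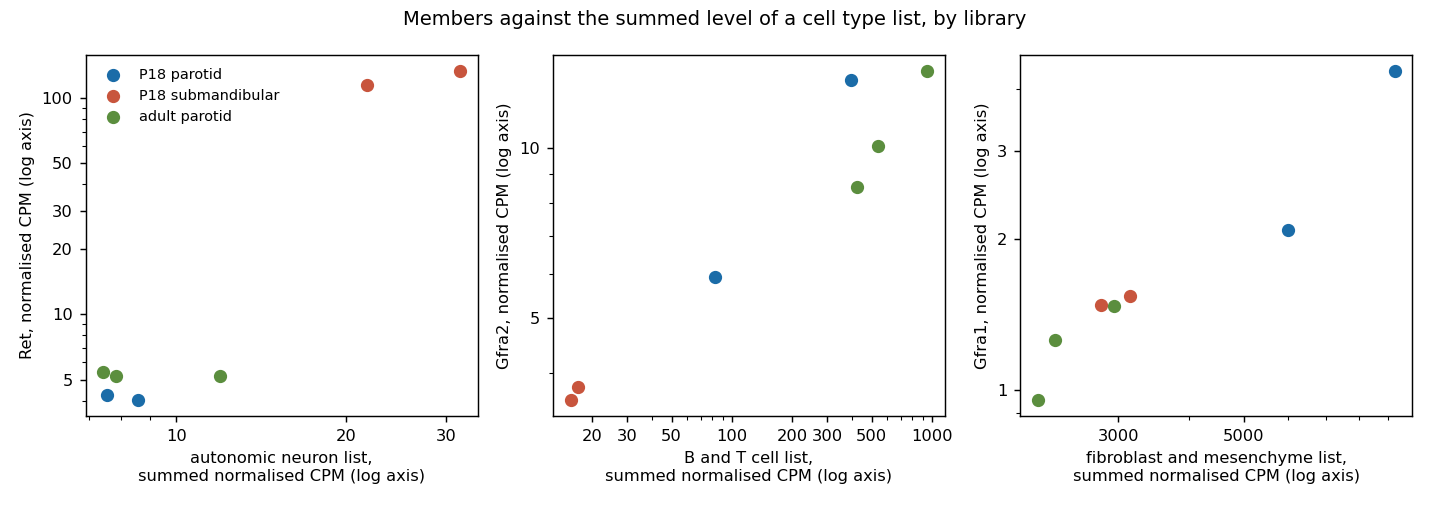
Normalised CPM of Ret, Gfra2 and Gfra1 (y axes, log) against the summed normalised CPM of a cell type list (x axes, log) in the 7 libraries, coloured by group. The pairings were chosen after the values were seen. Ret stands apart in the 2 submandibular libraries, Gfra2 is lowest where the B and T cell sum is 17.1 and 15.7, and Gfra1 is highest in P18 parotid replicate 2, where the mesenchyme sum is 9258.

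Gfra1, the preferred co-receptor of Gdnf, had 2.09 and 4.35 normalised CPM in P18 parotid. Its values were 1.48 and 1.54 in submandibular gland, and 1.47, 0.954 and 1.25 in adult parotid. Both P18 parotid libraries were above the other 5. The gland difference at P18 was 2.13-fold towards parotid and missed the threshold (log2 -1.09 ± 0.46, edgeR adjusted p = 0.127). Without P18 parotid replicate 1 it was 2.80-fold and passed (edgeR adjusted p = 0.0306), and without replicate 2 it was 1.37-fold (edgeR adjusted p = 0.505). The summed mesenchymal list was also highest in P18 parotid: the sum was 5998 and 9258 normalised CPM in the P18 parotid libraries, 2796 and 3142 in submandibular gland and 2162 to 2949 in adult parotid. At P18, 6 of its 12 genes were called lower in submandibular gland and none higher. The sum was mostly collagen: without Col1a1, Col1a2 and Col3a1, left out after their values were seen, the other 9 genes summed to 692 and 1135 in P18 parotid, 566 and 742 in submandibular gland and 995 to 1083 in adult parotid, and the groups overlapped. Between the parotid ages the median log2 difference of the 12 genes was -0.11. The endothelial sum was highest in P18 parotid as well, at 456 and 1016, against 158 and 141 in submandibular gland and 302 to 358 in adult parotid. Fat cell and skeletal muscle sums were also highest in P18 parotid replicate 2, at 11284 and 6727. The part of mesenchymal cells or of these other cells in the Gfra1 values was not tested. In GENCODE M21 (build GRCm38), 416 exon bases of Gfra1, 7.6% of them all, overlap the antisense gene Gm16277, and the strand setting of the counting was not given in the labels. Reads of either gene in that stretch cannot be told apart. No other member overlaps another gene's exons in that annotation.

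Gfra3, the preferred co-receptor of Artn, had 2.72 and 2.15 normalised CPM in the P18 parotid libraries, 3.43 and 2.27 in submandibular gland, and 5.39, 5.28 and 5.02 in adult parotid. The P18 glands overlapped (log2 0.23 ± 0.33, edgeR adjusted p = 0.642), and the adult libraries lay above all others. The direction between the P18 glands turned with the scaling, to log2 -0.38 with plain library sizes. Gfra4, the co-receptor of the family's remaining ligand Pspn, is no member of the set but belongs to the wider family. It had 25 and 68 counts in P18 parotid, 0 and 1 in submandibular gland and 15, 13 and 10 in adult parotid. By pooled counts, its level in P18 parotid was 64.1 times that in submandibular gland. The 95% exact interval of 11.2 to 2557 reflects counting error alone. The edgeR estimate was 52.1-fold (edgeR adjusted p = 0.0139).

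The make-up of the co-receptor pool differed between libraries of a group as well as between groups. Gfra2 made up 65.4% and 41.3% of the summed co-receptor TPM in P18 parotid, 33.4% and 39.1% in submandibular gland, and 55.6%, 49.8% and 45.9% in adult parotid. Gfra1 made up 11.1% and 32.6%, then 14.0% and 18.0%, then 6.40%, 5.04% and 7.24% in the same order. The Gfra1 share of all adult libraries was thus below that of all P18 libraries. Gfra3 held the largest share in both submandibular libraries, 52.6% and 43.0%. By mean TPM, the order in P18 parotid was Gfra2, Gfra3, Nrtn, Gfra1, Ret and then the sparse Gdnf and Artn. Gfra3, Nrtn and Gfra1 were not separated beyond their spread. Ret and Nrtn overlapped too, with Ret at 1.87 and Nrtn at 1.72 TPM in replicate 1. In submandibular gland Ret led, followed by Nrtn, then Gfra3 and Gfra2, which overlapped, and Gfra1. In adult parotid Nrtn led, Gfra2 and Gfra3 overlapped, and Ret and Gfra1 followed.

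Between P18 and adult parotid, Nrtn and Gfra3 rose and Gfra1 fell on the TMM scale, and the direction of Gfra3 turned with plain library sizes and with TPM. These are 3 of 5 members tested, where 25.9% of all genes tested passed, 10.7% higher and 15.1% lower. The comparison shares the P18 parotid libraries with the gland comparison. Nrtn rose 3.93-fold (log2 1.98 ± 0.50, edgeR adjusted p = 0.0277). Gfra3 rose 2.14-fold (log2 1.10 ± 0.30, edgeR adjusted p = 0.0364). Gfra1 fell 2.64-fold (log2 -1.40 ± 0.41, edgeR adjusted p = 0.0445). Groups did not overlap for these genes or for Ret, against 54.0% of all genes tested, 26.6% higher and 27.4% lower. Ret (log2 0.35 ± 0.16, edgeR adjusted p = 0.152) and Gfra2 (log2 0.17 ± 0.37, edgeR adjusted p = 0.755) did not pass.

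The age calls rested on small counts and on how libraries were scaled. By TPM, which carries no correction for composition, Nrtn stood at 1.72 and 4.85 in P18 parotid and at 3.78, 3.52 and 3.23 in adult parotid, so the groups overlapped. TPM of Gfra3 were 4.41 and 3.23 at P18 and 1.97, 2.34 and 2.21 in the adult, the opposite direction. With plain library sizes Nrtn was 1.70-fold higher (edgeR adjusted p = 0.165), Gfra3 had a log2 difference of -0.15 and Ret one of -0.89 (edgeR adjusted p = 0.00391). With plain sizes the median log2 difference of all genes was -1.24 in this comparison, -0.67 between the glands at P18 and 0.61 between submandibular gland and adult parotid. Nrtn, Gfra3, Ret and Gfra2 (log2 -1.11) were above that median of -1.24, and Gfra1 (log2 -2.61) was below it. Gfra1 was lower in adult parotid under all 18 alternatives, by log2 -0.75 to -2.87.

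Leaving out single libraries moved these calls. Without P18 parotid replicate 2, the Nrtn rise was 8.04-fold (edgeR adjusted p = 0.00833), and the Gfra1 difference was 1.68-fold and did not pass (edgeR adjusted p = 0.227). Leaving out either submandibular library or any adult library ended the Nrtn call, at edgeR adjusted p from 0.0556 to 0.0769, with differences of 3.54-fold to 4.22-fold. The same 5 libraries, left out in turn, ended the Gfra1 call (adjusted p from 0.0633 to 0.143 by edgeR), with differences of 2.37-fold to 2.88-fold. They also ended the Gfra3 call, as did leaving out P18 parotid replicate 2 (adjusted p from 0.0579 to 0.110 by edgeR), with log2 differences of 0.97 to 1.14. Such fits have fewer samples, and the folds without these libraries were close to those with all 7 except for Nrtn and Gfra1 without P18 parotid replicate 2. Without P18 parotid replicate 2 and adult replicate 1 together, a single library of P18 parotid remained. Nrtn was then 7.27-fold higher in the adult, Ret 1.28-fold higher and Gfra1 1.82-fold lower.

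**Figure D4:**
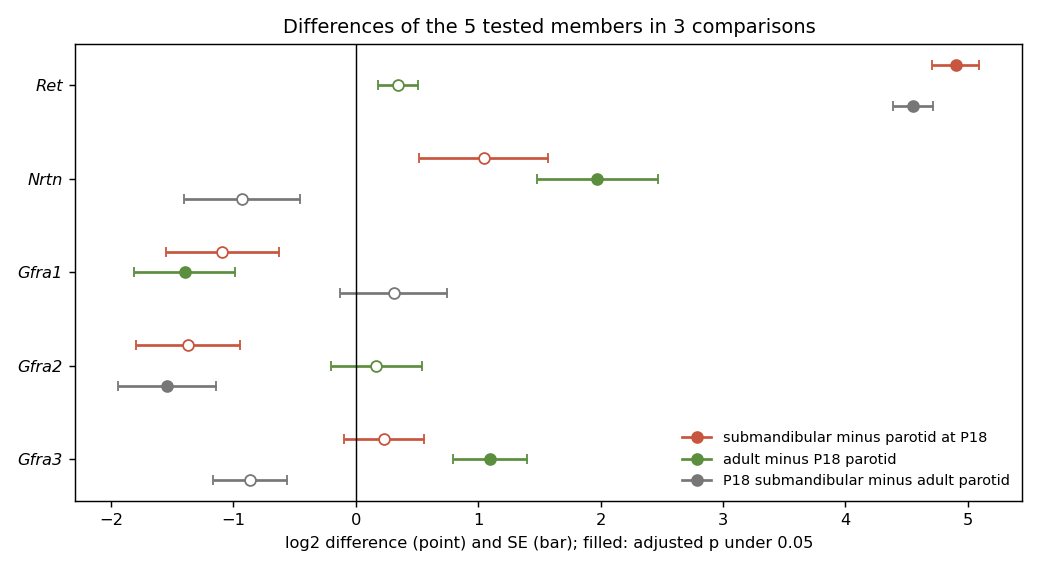
Log2 differences (x axis, points) with standard errors (bars) of the 5 tested members in the 3 comparisons. Filled points have an edgeR adjusted p under 0.05. Ret stands at 4.90 and 4.56 in the comparisons with submandibular gland and at 0.35 between the parotid ages, where its sign turns with plain library sizes and TPM.

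**Figure D5:**
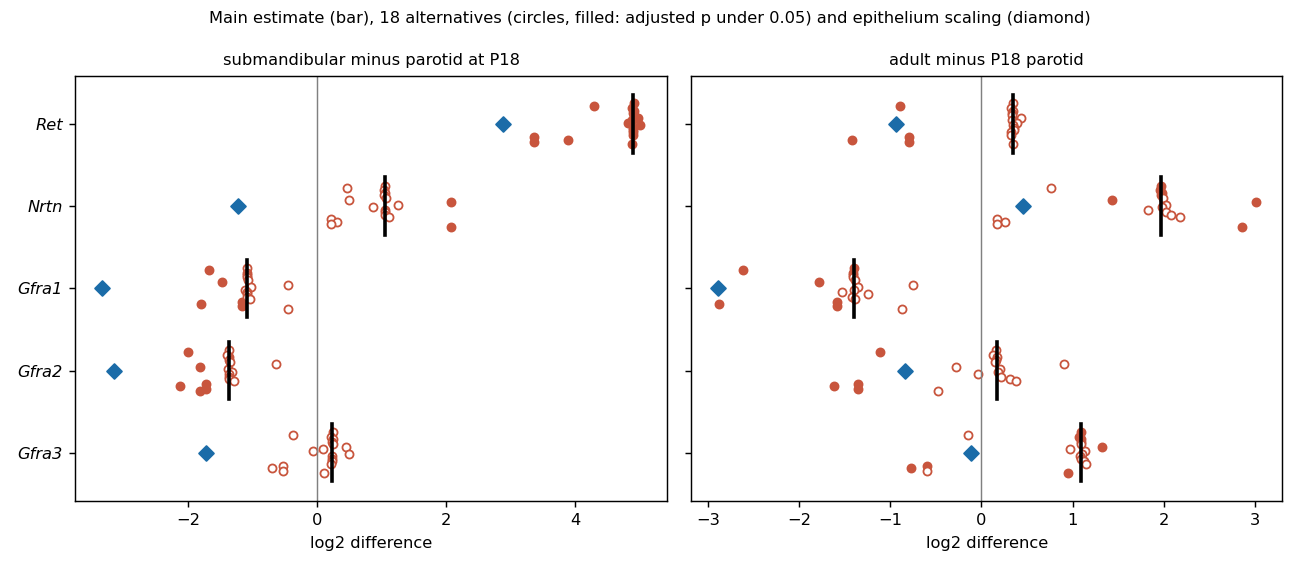
Log2 differences (x axis) of the 5 tested members between the glands at P18 and between the parotid ages, as reported (black bars), in 18 alternative settings (circles, filled where the adjusted p is under 0.05) and scaled to the epithelial list (diamonds, no test). Between the glands, all Ret values lie above 0 and all Gfra1 and Gfra2 values below 0. Between the ages, Ret, Gfra2 and Gfra3 fall on both sides of 0.

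Scaling to the epithelial list, as values without a test, lowered the 5 members' log2 differences in both comparisons. Between the glands at P18 it gave log2 -1.23 for Nrtn, -3.34 for Gfra1, -3.16 for Gfra2 and -1.73 for Gfra3, so Nrtn and Gfra3 changed sign. Between the parotid ages it gave 0.46 for Nrtn, -2.89 for Gfra1, -0.84 for Gfra2 and -0.93 for Ret. On this scale all genes together had medians of -2.11 between the glands and -1.32 between the ages. Between the glands Ret, Nrtn and Gfra3 were above that median and Gfra1 and Gfra2 below it.

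The partners of the family at the cell surface are proteins that bind or restrain the ligands or Ret. All 8 were tested, and at P18 1 was called higher and 2 lower in submandibular gland. The shares over all genes tested were 10.2% higher and 14.2% lower. The median log2 difference of the 8 was 0.52, against -0.07 over all genes. With plain library sizes none of the 8 was called higher and 2 lower. On that scale 5967 of all 15129 genes were called between the glands, 8.71% of these higher. Lrig1, a membrane protein that restrains Ret, had 91.1 and 86.6 normalised CPM in submandibular gland against 50.2 and 59.2 in P18 parotid, 1.63-fold higher (edgeR adjusted p = 0.0352). Sdc3, a heparan sulphate proteoglycan that binds GDNF ligands, had 7.64 and 5.13 against 31.6 and 31.5, 4.92-fold lower (edgeR adjusted p = 0.00810). Islr2, a leucine-rich membrane protein that interacts with Ret, was 7.64-fold lower (edgeR adjusted p = 0.0220). Between the parotid ages 1 of 8 passed, against 25.9% of all genes tested. It was Ncam1, an alternative receptor for GDNF, 3.22-fold lower in the adult (edgeR adjusted p = 0.0121).

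Inside the cell, 27 of 29 genes for adaptors, kinases and inhibitors downstream of Ret were tested. Between the glands 3 were called higher and 5 lower, against 10.2% higher and 14.2% lower of all genes tested. The median log2 of the 27 was -0.18. Without the 2 libraries that stood apart, the median was -0.08 over the 28 genes then tested. Rap1gap, a GTPase activator for Rap1, had 537 and 510 normalised CPM in submandibular gland against 114 and 37.7 in P18 parotid, 6.88-fold higher (edgeR adjusted p = 0.00955). Cblc, a ubiquitin ligase, was 3.08-fold higher (edgeR adjusted p = 0.0314) and the kinase Src 2.13-fold higher (edgeR adjusted p = 0.0377). Shank3, a scaffold that binds a Ret isoform, was 8.11-fold lower (edgeR adjusted p = 0.00393), the adaptor Dok2 3.42-fold lower (edgeR adjusted p = 0.0121) and phospholipase Plcg1 2.05-fold lower (edgeR adjusted p = 0.0162). In the adult against P18 parotid, 1 was called higher (Grb2, 2.19-fold) and 6 lower, among them Grb10, Irs1 and Cbl by 3.82-fold, 2.86-fold and 4.42-fold. Of all genes tested, 10.7% were called higher and 15.1% lower there. With plain library sizes, 19 of the 27 were called lower in the adult and none higher. On that scale 10957 of all 15129 genes tested were called between the ages, and only 1.52% of these calls were higher.

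Genes known to rise with Ret signalling in the mouse ureteric bud were called in both directions. Of 10 tested, 1 was called higher and 2 lower in submandibular gland at P18. The shares over all genes tested were 10.2% higher and 14.2% lower. The median log2 of the 10 was 0.39. Without the 2 libraries that stood apart the median was 0.34. Cxcr4, a chemokine receptor that leukocytes also carry, had 1.01 and 1.25 normalised CPM in submandibular gland against 17.3 and 7.66 in P18 parotid, 11.1-fold lower (edgeR adjusted p = 0.00668). Wnt11, a secreted Wnt ligand, was 11.6-fold lower (edgeR adjusted p = 0.00957). Etv4, Etv5, Spry1 and Dusp6, further ureteric bud targets of Ret, did not pass in this comparison. In the adult, Met, the receptor of hepatocyte growth factor, was 2.18-fold lower than at P18 (edgeR adjusted p = 0.0107).

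Transcription regulators of Ret, known from kidney, neural crest, gut, lung or breast cells, were set beside it as well. Of 17 genes 10 were tested, and 2 were called higher and 1 lower in submandibular gland at P18. The shares over all genes tested were 10.2% higher and 14.2% lower. The median log2 of the 10 was 0.02. Foxa1, a regulator of Ret in breast cancer cells, had 573 and 361 counts in submandibular gland against 1 and 1 in P18 parotid and 48, 48 and 0 in adult parotid. The ratio of pooled counts at P18 was 678, with a 95% exact interval of 187 to 5606 that reflects counting error alone. The edgeR estimate was 577-fold (edgeR adjusted p = 0.0137). Tfap2c, also a regulator of Ret in breast cancer cells, had 9.54 ± 0.691 normalised CPM against 2.01 ± 0.752 (SD, n = 2 each), 4.73-fold higher (edgeR adjusted p = 0.00896). Esr1, the oestrogen receptor, had 0.473 and 1.32 against 18.1 and 39.1, 32.5-fold lower (edgeR adjusted p = 0.00358). Without the 2 libraries that stood apart, the median log2 difference between the glands was -0.37. In the adult against P18 parotid, Sox10, which is also on the Schwann cell list, was 3.68-fold higher, Esr1 6.62-fold lower and Rarb, a retinoic acid receptor, 2.83-fold lower.

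Regulators of Gdnf known from mouse kidney mesenchyme were set beside the sparse Gdnf counts. Of 15 genes 10 were tested, with 1 called higher and 1 lower in submandibular gland at P18. The shares over all genes tested were 10.2% higher and 14.2% lower. The median log2 of the 10 was 0.33. Slit2, a secreted repellent that restricts Gdnf in the kidney, had 69.4 and 62.8 normalised CPM against 17.6 and 9.81, 4.83-fold higher (edgeR adjusted p = 0.0156). Fat4, a large protocadherin, was 1.80-fold lower (edgeR adjusted p = 0.0451). In the adult against P18 parotid 2 were called higher and 1 lower, against 10.7% higher and 15.1% lower of all genes tested. Six2, a homeobox factor of kidney progenitors, was 7.32-fold higher, and Fat4 was 11.2-fold lower (edgeR adjusted p = 0.000739).

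For each tested member, the 5 genes with the highest Pearson correlation of log2 normalised CPM over the 7 libraries were listed as a description. The 7 libraries fall into 3 groups that differ in many genes, so high values are common: 179 of 10432 genes compared exceeded 0.95 with Ret. Those most like Ret were Dnajc25 (r = 0.997), the ubiquitin ligase Lnx1 (0.992), the vesicle traffic factor Scfd1 (0.991), the vitamin C transporter Slc23a2 (0.990) and the vesicle coat subunit Sec13 (0.990). Slc23a2 had 103 normalised CPM in submandibular gland against 25.5 and 31.8 in P18 and adult parotid. Most like Gfra2 were Cyfip2 (0.991), Grap2, Fyb, Plxnc1 and Prkcb, of which Grap2 and Fyb encode adaptors of T cells. Grap2 had 12.1 normalised CPM in P18 parotid, 1.10 in submandibular gland and 14.5 in adult parotid. Most like Gfra1 were Mmachc (0.994), Antxr2, Gna12, Cul7 and Gpatch2l. Most like Nrtn were Bod1 (0.994), Tusc2, Gtf2f1, Tsg101 and Emc4. Most like Gfra3 were Shkbp1 (0.990), Dpcd, Six2 (0.978), Srsf4 and Znhit6.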

How the data were processed

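The submitters' processing notes name build mm9 and, with no role or order, featureCounts 1.5.1, TopHat2 2.1.1, DESeq2 1.20.0 and Bowtie2 2.2.6. The authors deposited raw counts per gene symbol and TPM (counts divided by gene length, scaled to a fixed total). The count table held 2 more columns without a matching sample label, which were left unused; the TPM table held 0. Tests used edgeR 4.0.16 in R 4.3.3 on the deposited counts: filterByExpr (minimum count 10, minimum total 15), TMM, and the quasi-likelihood F test on 3 groups in a single fit with 4 residual degrees of freedom. P-values were adjusted by Benjamini-Hochberg over all 15129 genes tested, with a threshold of 0.05. Standard errors come from the F statistic. Scripts were tested on simulated data. Alternatives used DESeq2 1.42.0, limma 3.58.1 on log2(TPM + 1) or log2(TPM + 0.1), other scalings and filters, and omitted libraries. Named genes are all members, and per list and comparison up to 3 in each direction with the smallest adjusted p, or the most abundant where none passed; not all are printed, some list genes are not reported here, and the other list genes named (Chrna3, Etv4, Etv5, Spry1 and Dusp6), Bpifa2 and Smgc were chosen with their values known. Likeness was computed with a prior count of 2 among named genes of at least 5 normalised CPM. The members and lists were chosen with earlier results of these data known. A fold against a group at 0 uses a floor of 3 counts over that group. No replicate pair agreed within sampling noise (chi-square per degree of freedom 13.3 to 197).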

Additional observations from a re-analysis of the deposited data

How the results depend on the processing

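Ret between the glands at P18, and between submandibular gland and adult parotid, kept its direction and its call under all 18 alternatives with a test. The counts of genes and members called moved more. Of all genes, 3686 were called between the glands, 3915 between the parotid ages and 5927 between submandibular gland and adult parotid. Plain library sizes gave 5967 and 10957 for the first and second; fits of only the groups compared gave 1349 and 2183. limma on log2(TPM + 1) gave 9716, 13219 and 9178, on log2(TPM + 0.1) 9064, 13172 and 9926, and without a filter on low values 9941, 14170 and 8977. Without the 2 libraries that stood apart, an alternative chosen after seeing the data, the counts were 6245, 6518 and 9345. Leaving out single libraries gave 148 to 5397, 1306 to 6073 and 2016 to 7824. The share of calls that were higher was 41.7%, 41.5% and 49.4% as reported, 8.71%, 1.52% and 79.8% with plain sizes, and 5.03%, 0.719% and 88.8% with log2(TPM + 1). The cause was not tested.

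Members called numbered 1, 3 and 2 in the same order. Between the glands, plain sizes gave 3, DESeq2 2, each of the 3 TPM fits 3 and the fit without 2 libraries 3; single omissions gave 1 to 3. Between the ages, the 2-group fit gave 0 and single omissions 0 to 3. Between submandibular gland and adult parotid, plain sizes, log2(TPM + 1) and its unfiltered form gave 1, the 2-group fit and the fit without 2 libraries 4, and single omissions 1 to 4.

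Some directions turned. Gfra3 between the glands (log2 0.23) was -0.38 with plain sizes, -0.54, -0.70 and -0.54 in the TPM fits (pseudocount 1, 0.1 and 1 unfiltered), and from -0.069 (without submandibular replicate 1) to 0.50 with single libraries left out. Between the ages, in the same order of plain sizes and TPM fits, Ret was -0.89, -0.79, -1.42 and -0.79, Gfra2 -1.11, -1.35, -1.61 and -1.35, and Gfra3 -0.15, -0.59, -0.77 and -0.59, with Gfra3 at -0.11 on the epithelial scale. Gfra2 was also -0.036 without adult replicate 1, -0.47 without that library and P18 parotid replicate 2, and from -0.27 (without P18 parotid replicate 2) to 0.90 with single libraries left out. On the epithelial scale, Nrtn and Gfra3 between the glands were -1.23 and -1.73, Ret and Gfra2 between the ages -0.93 and -0.84, and Gfra1 between submandibular gland and adult parotid -0.44 (0.31 as reported). Between submandibular gland and adult parotid, where they were -0.93 and -0.87, the TPM fits gave Nrtn 0.036, 0.044 and 0.036 and Gfra3 0.056, 0.069 and 0.056.

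With the replicate number as a block, 2529, 1496 and 4060 genes and 1, 0 and 2 members were called, from 2 residual degrees of freedom. Deviations of libraries with the same number correlated by 0.239 between the P18 glands and 0.0844 and 0.0104 between the parotid ages. Between submandibular gland and adult parotid they correlated by -0.0171 and -0.0174. In a group of 2 libraries the deviations mirror each other, so P18 libraries with different numbers gave -0.239. These values therefore cannot tell whether the numbers pair the samples, and the reported fit did not pair them. Depth limits Gdnf (0 to 5 counts per library) and Artn (1 to 3), and also Nrtn, Gfra1 and Gfra3 (12 to 104).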
